A study of Mus musculus with 8 samples.

Results

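A group of 10 neuropeptide genes was followed among the 27998 genes of a single-cell RNA-seq matrix. They were Gnrh1, Sst, Npy, Cck, Nts, Tac1, Penk, Pdyn, Cartpt and Vip, and they were chosen by name, with their uneven spread over the barcodes of this matrix already known. The spread and the levels below are therefore descriptions, and no test was run on them. The cells were Ebf2-EGFP+ cells of the cerebral cortex of E15.5 embryos of the strain Tg(Ebf2-EGFP)FB58Gsat. In this strain a transgene places EGFP under regulatory sequence of Ebf2, a transcription factor of early-born cortical neurons and Cajal-Retzius cells. Cells of about 8 embryos were dissociated, sorted by FACS for EGFP and loaded on a 10x Genomics Chromium device. The 8 samples of the series belong to 1 group and shared 1 matrix, so the embryos cannot be told apart and there are no replicates. All intervals are exact 95% intervals, and the limit given for a count of 0 is that of 3 counts; both cover counting error only.

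Neuropeptide genes encode precursor proteins that are packed into dense-core vesicles, cut at pairs of basic residues by prohormone convertases and released as signalling peptides. Each peptide is usually made by small, well-marked groups of neurons, so that a high count of a single precursor can mark a cell type on its own. In the developing forebrain Gnrh1 marks the neurons that start the reproductive axis and migrate into the brain from the olfactory placode, Sst and Npy mark GABAergic interneurons born in the ganglionic eminences, and Tac1, Penk and Pdyn mark striatal projection neurons. Mice without Ebf2 are known for a defect in the migration of GnRH neurons.

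A total of 3000 barcodes carried 10718 to 76690 unique molecular identifiers (UMIs, counts of single captured transcripts) each, with a median of 15832. Removal of the 69 barcodes with the highest doublet scores left 2931. Of these, 470 carried at least 5 UMIs of Reln, the secreted glycoprotein that marks Cajal-Retzius neurons, per 10000 UMIs and are called Reln-high. Another 23 were set aside for markers of other cells, 22 of them for radial glia or cycling markers, and the remaining 2438 are called other neurons. Reln-high barcodes were not filtered in this way, and 18 of them passed the same marker limits. The median depth was 21447.5 UMIs in Reln-high and 15276.5 in other neurons. 22 kept barcodes lay within 4 to 6 Reln UMIs per 10000, close to the limit. The labelled cell type was a cortical neuron, and the 5 general neuronal markers (Tubb3, Stmn2, Dcx, Map2 and Snap25) summed to a median of 88.9 UMIs per 10000. A UMI of Ebf2 itself was found in 9.77% of the barcodes.

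Gene positions below are those of GENCODE M21 on GRCm38, the assembly that mm10 names. The coding sequences of the 3 genes with the highest counts in a single barcode are shown, because the UMIs below count transcripts of these precursors. They are 5′ to 3′ in the mouse GENCODE M21 annotation (GRCm38), and capitals mark each in-frame pair of adjacent codons for lysine or arginine, the residues at which precursors are cut. Gnrh1 is shown whole (273 bases in 3 coding exons, chr14:67746346-67749291, plus strand), Npy is shown whole (294 bases in 3 coding exons, chr6:49823598-49829327, plus strand), and of Sst the last 150 of 351 bases are shown (2 coding exons, chr16:23889729-23890744, minus strand).
Gnrh1: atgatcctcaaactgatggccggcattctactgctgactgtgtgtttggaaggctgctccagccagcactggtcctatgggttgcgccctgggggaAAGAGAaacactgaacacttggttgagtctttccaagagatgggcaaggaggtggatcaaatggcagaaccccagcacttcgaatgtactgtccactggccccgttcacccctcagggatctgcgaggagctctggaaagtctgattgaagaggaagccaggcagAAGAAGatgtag
Sst: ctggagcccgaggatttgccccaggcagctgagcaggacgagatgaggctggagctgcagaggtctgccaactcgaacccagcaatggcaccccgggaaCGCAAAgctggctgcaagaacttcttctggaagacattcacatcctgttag
Npy: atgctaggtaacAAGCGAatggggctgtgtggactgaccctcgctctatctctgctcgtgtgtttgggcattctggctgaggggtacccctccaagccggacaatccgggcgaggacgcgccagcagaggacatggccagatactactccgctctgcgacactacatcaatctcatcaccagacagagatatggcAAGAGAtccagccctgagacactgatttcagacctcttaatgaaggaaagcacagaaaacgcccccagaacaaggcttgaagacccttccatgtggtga
The Gnrh1 sequence held basic pairs at codons 33 and 88, and the first of them follows the codons of the GnRH peptide itself. Sst held a single pair at codon 101, just before the codons of the short somatostatin form. Npy held pairs at codons 5 and 66, and the second of them ends the neuropeptide Y segment.

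The 10 genes fell into 3 kinds of spread. Gnrh1, Sst, Nts, Tac1 and Cartpt were concentrated, that is, their 3 highest barcodes held at least 20% of their UMIs. Npy, Penk, Pdyn and Cck were spread over more barcodes by this limit. With the 10 highest barcodes in place of 3, Npy, Penk and Pdyn also passed 20%. Counting more barcodes raises this share for any spread-out gene, and the share over all genes was not computed for 10 barcodes. For Pdyn it rested on 63 UMIs in 54 barcodes, with at most 3 in any. Vip, the precursor of vasoactive intestinal peptide (ENSMUSG00000019772, chr10:5639218-5647617, plus strand), had 0 UMIs in the 3000 barcodes, which allows a level of up to 0.0525 CPM (counts per 1000000 UMIs). 5 of the 9 detected members were concentrated. Over all 13677 genes with at least 20 UMIs this share was 2.08%, and over the 8252 genes with at least 500 UMIs it was 0.0969%, or 8 genes. These 8 included Gnrh1, at the second place, Sst, at the sixth, and Nts, at the seventh, beside the haemoglobin genes Hba-a2, Hbb-bt, Hba-a1 and Hbb-bs and the follistatin gene Fst. Concentration was what the genes were chosen for, so nothing is read from these shares. Nts, with 40.1%, was the lowest value inside the limit and Npy, with 17.8%, the highest outside it.

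**Figure D1:**
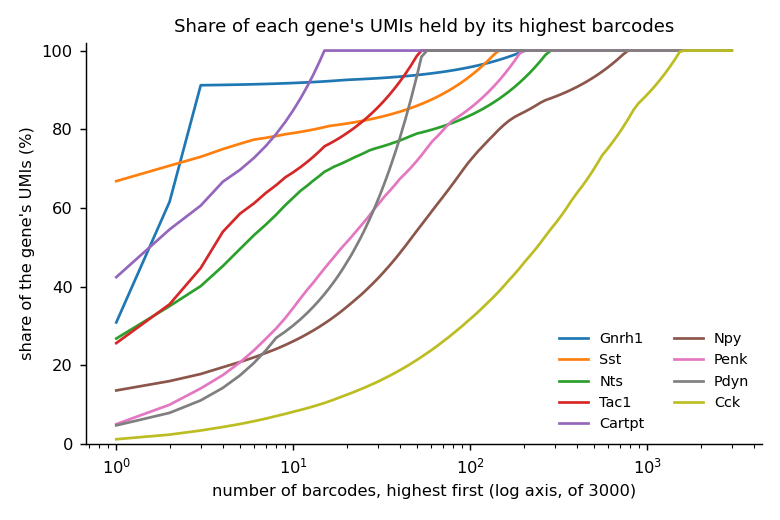
Share of each gene's UMIs (y axis, %) held by its highest barcodes (x axis, number of barcodes, log scale) for the 9 detected genes over 3000 barcodes. The Gnrh1 line reaches 91.2% at 3 barcodes and Sst 66.8% at 1 barcode, while Cck needs 239 barcodes to reach 50%.

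Gnrh1 encodes the precursor of gonadotropin-releasing hormone (ENSMUSG00000015812, chr14:67745181-67749439, plus strand). Its 2474 UMIs lay in 204 barcodes, but 3 of them held 765, 758 and 733 UMIs and the fourth held 2. The 3 barcodes thus held 91.2% of the transcripts (90.0 to 92.3%). Of the rest, 184 carried a single UMI. No barcode lay between the 2 levels, since the 3 high barcodes had 399, 246 and 281 Gnrh1 UMIs per 10000 and the highest of the others had 1.69. The 3 barcodes stood at places 897, 301 and 441 in order of depth, with 19183, 30817 and 26071 UMIs, and none was among the barcodes removed as likely doublets.

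The 3 Gnrh1 barcodes also carried other genes of GnRH neurons. Six6, a homeobox gene needed for GnRH neuron number, had 14, 4 and 16 UMIs in them (in the same order) and was seen in only 0.133% of all barcodes. Isl1, a LIM homeobox gene, had 10, 5 and 13 UMIs and was seen in 0.4% of barcodes. Gal, the galanin precursor, had 26, 7 and 0 UMIs, and Prph, the peripherin intermediate filament of neurons with peripheral axons, had 0, 1 and 23. Of the 9 GnRH neuron markers other than Gnrh1, 8 were detected in at least 1 of the 3, while Prokr2 had 0 UMIs in each. The 9 summed to 32.8, 16.9 and 29.5 UMIs per 10000, against a median of 1.49 in all other barcodes. Chga, among the 8, had 2, 2 and 3 UMIs and was seen in 75.2% of all barcodes. One of these markers, Nhlh2, is also a Cajal-Retzius marker and had 8, 31 and 11 UMIs. Without Nhlh2 the sums were 28.7, 6.81 and 25.3 per 10000, against a median of 0.774. Thus Six6 and Isl1 were present in each of the 3 barcodes, while Gal and Prph differed among them. The ranked genes of the 3 barcodes were Gng8, Six6, Epcam, Isl1, Gal, Tppp3, Prph, Cited1, Krt8 and Cldn3, of which Epcam, Krt8 and Cldn3 are epithelial genes. Gng8, a G protein subunit of olfactory and vomeronasal neurons, reached 841 CPM in them against 1.31 CPM elsewhere. Pnoc, the nociceptin precursor, had 5, 7 and 11 UMIs.

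Cortical genes were low in these 3 barcodes. The excitatory list (Slc17a7, Slc17a6, Neurod2, Neurod6 and Tbr1) summed to 1.56, 3.89 and 1.92 UMIs per 10000, against a median of 21.7. The deep-layer list summed to between 2.09 and 2.3, against a median of 15.6. Ebf2 had 2, 1 and 0 UMIs. The barcode at place 301 differed from the other 2, since it was itself Reln-high. It had 36 Reln UMIs, 4 of Trp73 (the p73 transcription factor of Cajal-Retzius neurons) and 6 of Lhx5. Its Cajal-Retzius list reached 27.3 per 10000, against 6.26 and 5.75 in the other 2 and a median of 1.83 outside these 3. Its doublet score stood at place 367 of 3000, and whether it held 2 cells was not tested. Over the 3000 barcodes, the genes whose log level was most alike that of Gnrh1 were Six6 (Pearson's r = 0.79), Krt8 (0.59) and Gng8 (0.59), a description that rests on the same 3 barcodes of 1 library.

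**Figure D2:**
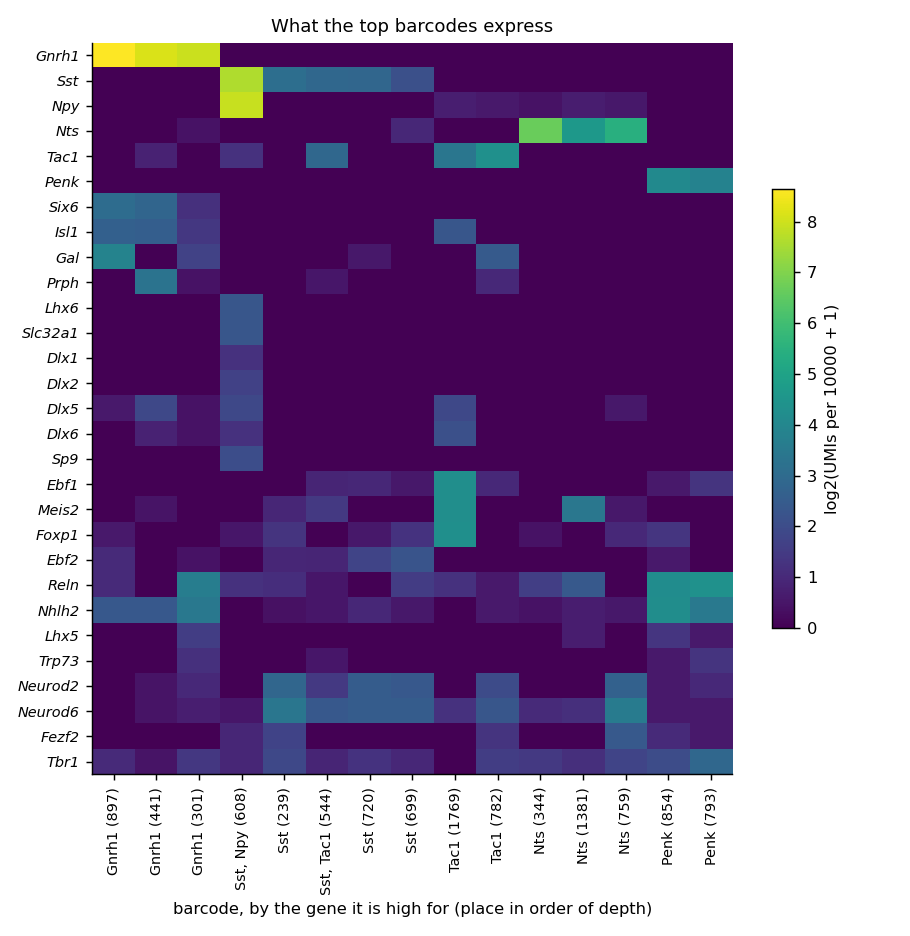
Level of neuropeptide and marker genes (rows) in 15 barcodes (columns, named by the neuropeptide gene they are high for, with the place in order of depth), coloured by log2(UMIs per 10000 + 1). Six6 and Isl1 are lit in the 3 Gnrh1 columns, Lhx6, Slc32a1 and the Dlx genes in the Sst and Npy column, Ebf1, Meis2 and Foxp1 in the Tac1 column at place 1769, and Reln and Nhlh2 in the Penk columns.

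Sst, the somatostatin precursor (ENSMUSG00000004366, chr16:23889573-23890958, minus strand), had 663 UMIs in 143 barcodes. A single barcode held 443 of them, or 66.8% (63.1 to 70.4%), and the next 5 held 26, 15, 13, 9 and 7. 127 barcodes carried 1 UMI. The same barcode, at place 608 with 22603 UMIs, also held the highest count of Npy, 545 UMIs. It was the only barcode with at least 10 UMIs per 10000 of both genes, and its doublet score stood at place 371 of 3000.

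This barcode carried the markers of GABAergic interneurons of the medial ganglionic eminence. Lhx6, the LIM homeobox factor of that lineage, had 9 UMIs and was seen in only 0.333% of all barcodes. Slc32a1, the vesicular GABA transporter, had 9 UMIs as well. Dlx1, Dlx2, Dlx5 and Dlx6 had 3, 5, 6 and 3, Sp9 had 7 and Erbb4 had 3, while the GABA-synthesizing Gad1 had 1 and Gad2 had 0. In all, 12 of 14 interneuron markers were detected and summed to 23.9 UMIs per 10000, against a 99th percentile of 1.53 over all barcodes. The cortical excitatory genes Neurod2 and Neurod6 had 0 and 1, and Ebf2 had 0. The genes most alike Sst over the 3000 barcodes were Lhx6 (r = 0.39), Kcnh1 (0.32) and Sox1 (0.31). These values are descriptions, and Lhx6 had 0 UMIs in each of the next 5 Sst barcodes.

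The next Sst barcodes were of another kind. Those at places 239, 544, 720 and 699, with 26, 15, 13 and 7 Sst UMIs, and the one at place 103, with 9, had 0 UMIs of the whole interneuron list. The first 4 carried 21, 4, 10 and 9 UMIs of Neurod2 and 3, 2, 5 and 8 of Ebf2. The barcode at place 103 was Reln-high, with 46 Reln UMIs, 7 of Neurod2 and 3 of Ebf2. The excitatory list summed to 19.4, 8.02, 12.4 and 9.92 UMIs per 10000 in the first 4 and to 7.23 at place 103, each below the median of 21.7 over all barcodes, and Neurod2 was found in 96.3% of all barcodes. Beyond place 608 the highest Sst barcodes thus showed no interneuron marker, and their excitatory sums were not high. The ranked genes of the barcode at place 239 included Nrgn, Igfbp5, Rprml and Scg2.

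The Sst and Npy promoters are shown because the 2 genes reached their highest counts in the same barcode. 8 of the 10 genes matched the RefSeq promoter windows (GRCm38.p6, 250 bases before to 50 after the start), in 9 windows, and Gnrh1 and Penk did not. Capitals mark the cyclic AMP response element TGACGTCA, which reads the same on both strands, and its shorter form TGACG or CGTCA, which lies within it. The Sst window is chr16:23890795-23891094 (minus strand) and the Npy window is chr6:49822460-49822759 (plus strand).
Sst promoter: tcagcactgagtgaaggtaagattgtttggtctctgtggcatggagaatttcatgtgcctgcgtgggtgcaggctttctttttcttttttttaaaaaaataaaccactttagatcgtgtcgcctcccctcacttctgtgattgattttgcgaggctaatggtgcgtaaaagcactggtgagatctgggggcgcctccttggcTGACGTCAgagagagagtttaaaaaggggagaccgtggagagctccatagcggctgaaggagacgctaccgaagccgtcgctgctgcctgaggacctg
Npy promoter: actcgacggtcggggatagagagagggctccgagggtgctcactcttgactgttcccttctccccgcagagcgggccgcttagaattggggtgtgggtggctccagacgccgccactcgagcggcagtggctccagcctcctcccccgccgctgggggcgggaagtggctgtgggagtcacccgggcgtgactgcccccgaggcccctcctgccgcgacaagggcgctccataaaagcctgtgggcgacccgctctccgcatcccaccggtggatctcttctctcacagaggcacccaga
Sst held the full element 48 bases before its start, and of the other members only Cartpt held it, 112 bases before its start. It was found in 1.79% of 32851 promoter windows. The shorter form was in windows of 6 members, among them Cck, Nts, Tac1 and Vip, and in 20.8% of all windows. Npy and Pdyn held neither, which says only that these letters were not in these windows.

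**Figure D3:**
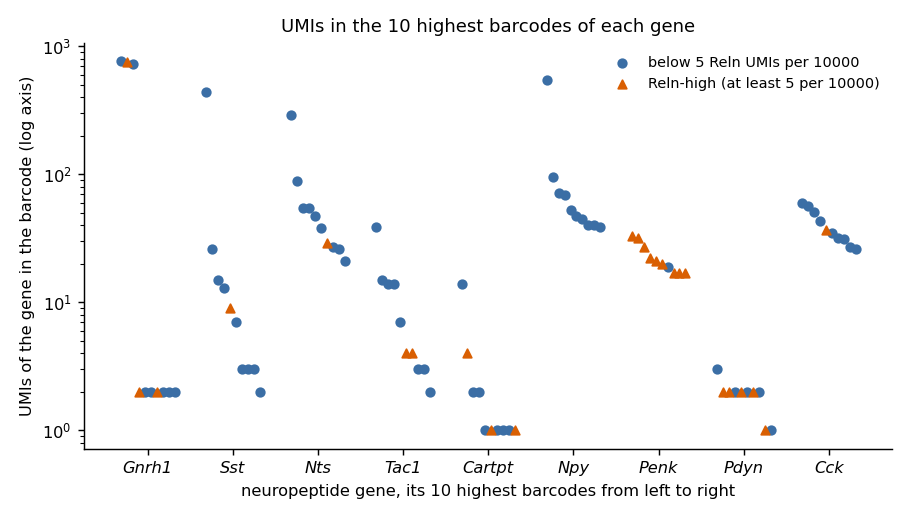
UMIs (y axis, log scale) in the 10 highest barcodes of each of 9 neuropeptide genes (x axis), from left to right, with Reln-high barcodes as triangles and barcodes below 5 Reln UMIs per 10000 as circles. Gnrh1 drops from 733 to 2 UMIs after its 3 highest barcodes, and 9 of the 10 Penk barcodes are Reln-high.

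Npy, the neuropeptide Y precursor (ENSMUSG00000029819, chr6:49822710-49829507, plus strand), had 3997 UMIs in 770 barcodes. Beyond the 545 UMIs at place 608 the highest counts were 95 (in a barcode removed from the group comparisons as a likely doublet), 72, 69 and 53, and 43 barcodes held 50% of the total. 67 barcodes had at least 10 Npy UMIs per 10000, with values of 10.0 just inside and 9.82 just outside this limit. These 67 held 58.9% of the Npy UMIs, and 2 of them were Reln-high. Their depth was low, with a median of 12121 UMIs against 15940 in the rest. They did not share the interneuron genes of the first barcode, since their median interneuron list sum was 0. Their ranked genes were Caln1, Nfe2l3, Hs3st4, Sybu, Akap7, Wnt7b, Bcl2, Rprm, Tmem108 and Pde2a. Rprm, a layer 6 gene, was detected in 67 of 67 barcodes at 1649 CPM, against 666 CPM elsewhere. The subplate markers summed to a median of 2.73 UMIs per 10000 in them against 1.37 in the rest, with 2 of 9 at least 2-fold higher, and the deep-layer markers to 17.5 against 15.6, with 2 of 7. Ngfr, the p75 neurotrophin receptor, was the gene most alike Npy (r = 0.31).

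Nts, the neurotensin precursor (ENSMUSG00000019890, chr10:102481756-102490486, minus strand), had 1081 UMIs in 278 barcodes. The highest counts were 290, 89, 55, 55, 47 and 38, and these 6 barcodes held more than 50% of the total. The barcode with 290 UMIs, at place 344, had 22 UMIs of the transcription factor gene Tfap2c, 18 of Pbx3, 10 of Tshz1 and 12 of Synpr, with 0 of Neurod2. The barcode with 89 UMIs, at place 759, carried the deep-layer genes Crym (21 UMIs), Sox5 (13), Fezf2 (9) and Tle4 (6), and 11 of Neurod2. The barcode with 38 UMIs, at place 1381, had 15 UMIs of Foxp2, 16 of Meis2, 17 of Pbx3 and 31 of Calb2 (calretinin). The high Nts barcodes thus differed in what else they expressed. Over the 9 barcodes with at least 10 Nts UMIs per 10000, the ranked genes included Sertm1, Plcxd3, Ptn, Lmo3, Mgat4c, Dennd6b, Asap2, Grm5 and Sstr2, and their ratios over the rest were between 2.72 and 5.43. No gene had an r of 0.3 or more with Nts.

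Tac1, the precursor of substance P (ENSMUSG00000061762, chr6:7554879-7565834, plus strand), had 152 UMIs in 52 barcodes, with 39, 15, 14, 14 and 7 in the highest 5, and the first 3 held 44.7% (36.7 to 53.0%). The barcode with 39 UMIs, at place 782, had 9 UMIs of Gal and both vesicular glutamate transporters, Slc17a7 with 4 and Slc17a6 with 3. Its excitatory list summed to 12.3 UMIs per 10000, below the median of 21.7 in all other barcodes. Its ranked genes included Tshz2, Nrgn and Sncb. The barcode at place 1769, with 14 Tac1 UMIs, carried genes of striatal projection neurons, namely Ebf1 with 27 UMIs, Foxp1 with 28, Meis2 with 27, Isl1 with 6 and Rxrg with 5. Its striatal list summed to 63.7 UMIs per 10000, against a 99th percentile of 18.8 over all barcodes. It also had 4 UMIs of Gad1, 4 of Dlx5 and 5 of Dlx6, and 0 of Neurod2. The barcode at place 544 held 15 UMIs each of Tac1 and Sst, with 16 of the imprinted noncoding RNA H19, the gene most alike Tac1 (r = 0.32). The highest Tac1 barcodes were thus of unlike content.

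Cartpt, the precursor of the CART peptide (ENSMUSG00000021647, chr13:99898489-99901091, minus strand), had 33 UMIs in 15 barcodes, with 14, 4, 2 and 2 in the highest 4. The barcode with 14 UMIs, at place 1009, had 30 UMIs of Neurod1, 26 of Calb2 and 25 of Zbtb20. Pdyn, the dynorphin precursor (ENSMUSG00000027400, chr2:129686565-129699844, minus strand), had 63 UMIs in 54 barcodes and never more than 3 in any. Its highest barcode, at place 683, had 49 UMIs of Dlk1 and 23 of Otp, a homeobox gene of hypothalamic neuroendocrine cells, 12 of Peg10 and 106 of Ndn. At these totals a share of the highest barcodes has a wide interval, for Cartpt 60.6% (42.1 to 77.1%) and for Pdyn 11.1% (4.59 to 21.6%).

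Cck, the cholecystokinin precursor (ENSMUSG00000032532, chr9:121489824-121495694, minus strand), was the most widely spread of the members. It had 4858 UMIs in 1543 barcodes, with 60, 57 and 51 in the highest 3, which held 3.46% (2.96 to 4.01%). 19 barcodes had at least 10 Cck UMIs per 10000, and their ranked genes were Fxyd7, Meis2, Gabra5, Cpne5, Negr1, Ddah1, Cdo1, Caln1, Hpca and Mgll. The barcode with 60 UMIs, at place 2496, had 15 UMIs of Pbx3 and 12 of Meis2. No gene had an r of 0.3 or more with Cck.

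Penk, the proenkephalin gene (ENSMUSG00000045573, chr4:4133531-4138819, minus strand), was the member tied to Reln. It had 650 UMIs in 195 barcodes, with 33, 32, 27, 22 and 21 in the highest 5, and 9 of its 10 highest barcodes were Reln-high. The 3 barcodes with at least 10 Penk UMIs per 10000 had 30 to 40 Reln UMIs each. Their ranked genes were C1ql1, Gm28050, Mia, Nhlh2, Mid1ip1, Cenpf, Cxcl12, Pcp4, Mdk and Syndig1l, of which Nhlh2 is a bHLH factor and Cxcl12 the chemokine of the meninges. The genes most alike Penk over all barcodes were E330013P04Rik (r = 0.34), Dkk3 (0.34) and Gm28050 (0.33).

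The level of each gene was then compared between Reln-high and other neurons, as CPM of the summed UMIs of each group. Penk was the only member at least 2-fold higher in Reln-high neurons, with 511 UMIs or 42.1 CPM (38.5 to 45.9) against 103 UMIs or 2.44 CPM (1.99 to 2.96), a log2 ratio of 4.11 (3.80 to 4.43). Over all 13564 genes with at least 20 UMIs in the 2 groups, 9.89% were at least 2-fold higher. The level was 17.2-fold higher. Before the removal of likely doublets, 19 of the 195 barcodes with a Penk UMI held 50% of its UMIs. A Penk UMI was found in 115 of 470 Reln-high barcodes (24.5%, 20.6 to 28.6%), of which 48 had a single UMI and 28 at least 5. It was found in 72 of 2438 others (2.95%, 2.32 to 3.70%), of which 65 had a single UMI and 3 at least 5. After each barcode was thinned to 10000 UMIs the shares were 16% and 1.6%. 0 of the 22 radial glia or cycling barcodes had a Penk UMI, which by the limit of 3 counts allows a share of barcodes with a UMI of up to 13.6%.

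Sst, Npy, Nts and Tac1 were at least 2-fold lower in Reln-high neurons, 4 members of 9. Over all genes tested the share was 7.28%, and the median log2 ratio of all genes was 0.12, against -0.86 for the members. Sst had 3.05 CPM (2.15 to 4.2) against 14.6 (13.5 to 15.8), a log2 ratio of -2.26. Npy had 22.7 CPM (20.1 to 25.5) against 82.9 (80.2 to 85.7), a log2 ratio of -1.87. Nts had 6.92 CPM (5.52 to 8.57) against 22.7 (21.3 to 24.2), a log2 ratio of -1.71. Tac1 had 1.48 CPM (0.879 to 2.35) against 3.11 (2.60 to 3.69), a log2 ratio of -1.07. Without each gene's own high barcodes (1 for Sst, 67 for Npy, 9 for Nts and 1 for Tac1) none of the 4 stayed past the limit, with log2 ratios of -0.42 for Sst, -0.71 (-0.92 to -0.50) for Npy, -0.38 for Nts and -0.56 for Tac1, whereas Penk kept 3.88. Without a cluster of 176 barcodes led by the noncoding RNA gene Snhg11, Npy and Nts stayed lower at -1.60 and -1.09. Sst then had -0.07 (-0.75 to 0.55), and Tac1 turned to 1.09 (-0.03 to 2.16, on 34 UMIs), while Gnrh1 (4.19) and Pdyn (1.20) passed the limit on the higher side. For Gnrh1, 758 of the 957 UMIs left lay in the Reln-high barcode at place 301. The cluster held the other 2 high Gnrh1 barcodes.

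The other 4 detected members lay within 2-fold. Cck had 52.8 CPM (48.8 to 57.1) in Reln-high neurons against 96.2 (93.3 to 99.2), a level 1.82-fold higher in other neurons and the value just outside the limit, as Tac1 with 2.09-fold was just inside. Pdyn had 1.73 CPM (1.07 to 2.65) against 0.925 (0.657 to 1.26), a log2 ratio of 0.90 (0.07 to 1.71) from 21 and 39 UMIs. Cartpt, with 7 and 26 UMIs, had a log2 ratio of -0.10 (-1.54 to 1.15), so that a difference was not detectable at this depth. Gnrh1 had 66.4 CPM (61.9 to 71.2) against 39.3 (37.4 to 41.2), a log2 ratio of 0.76 that rested on where its 3 barcodes fell. Without them it was 0.06 (-0.43 to 0.54), and without the barcodes above 25000 UMIs, which removes the barcodes at places 301 and 441, it was -2.83. Vip had 0 UMIs in both groups.

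**Figure D4:**
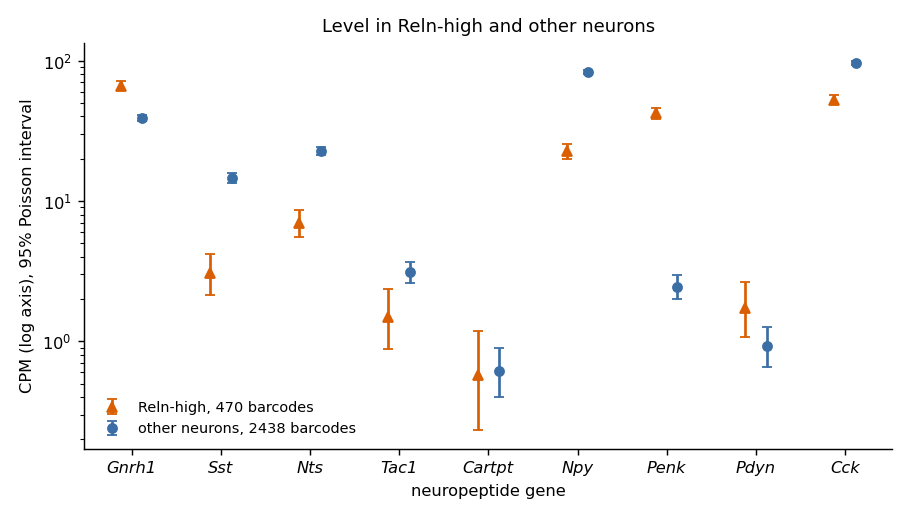
Level of 9 neuropeptide genes (x axis) in CPM (y axis, log scale) in 470 Reln-high barcodes (triangles) and 2438 other neurons (circles), with exact 95% Poisson intervals that cover counting error only. Penk is higher in Reln-high neurons, at 42.1 against 2.44 CPM, while Sst, Npy, Cck, Nts and Tac1 are lower.

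The share of barcodes with any UMI told a different story from the level for the genes that rest on a few barcodes. Gnrh1 was seen in 10.0% of Reln-high barcodes (7.44 to 13.1%) and 6.07% of other neurons (5.16 to 7.09%), and at equal depth in 3.83% and 3.77%. In the radial glia or cycling barcodes, with a median depth of 14745 UMIs, it was seen in 1 of 22 (4.55%, 0.115 to 22.8%), an interval that covers the shares of both groups at either depth. Sst was seen at equal depth in 2.55% and 2.83%, Nts in 3.83% and 5.87%, with 0 and 3 of 22 in radial glia or cycling barcodes. Npy at equal depth was in 13.4% and 18.2%, beside 4 of 22 in radial glia or cycling barcodes. Cck was in 26.0% and 41.6%, above the 18.2% of those barcodes but within its interval (5.19 to 40.3%) for the Reln-high group. The shares unthinned were 5.53% and 4.43% for Sst, 10.4% and 8.82% for Nts, 23.4% and 25.7% for Npy and 45.3% and 52.5% for Cck. At equal depth the intervals of the 2 groups did not overlap for Penk (12.8 to 19.6% and 1.14 to 2.18%) and for Cck (22 to 30.2% and 39.6 to 43.6%), in opposite directions. Over all 13564 genes tested, 22.4% had such a share higher in Reln-high neurons and 9.79% lower.

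Clusters were made without any of the neuropeptide genes. K-means gave 8 clusters, of which those with the marker genes of a cell type were named after them. These were a Cajal-Retzius-like cluster of 394 barcodes with 10 of 10 markers, a deep-layer-like (697), an upper-layer-like (346), a subplate-like (334) and a radial glia-like (18) cluster. 3 stayed unnamed, led by Fezf2 (715 barcodes), Neurod1 (251) and Snhg11 (176). The Fezf2-led cluster had 2 of 7 deep-layer markers, Fezf2 and Bcl11b, below the 3 needed for a name. The deep-layer-like cluster had 3 of 7, namely Tle4, Foxp2 and Sox5. The Snhg11-led cluster held markers of several lists, among them 6 of 14 for interneurons, 6 of 12 for striatal neurons and 5 of 10 for GnRH neurons. These marker counts include the barcodes described above.

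The Snhg11-led cluster, 6.0% of the kept barcodes with 6.07% of their UMIs, held 80.7% of the Sst, 76.2% of the Tac1, 61.1% of the Gnrh1, 36.5% of the Nts and 25% of the Pdyn UMIs. Of the 10 highest barcodes it held 9 for Sst, 9 for Tac1, 7 for Cck, 4 for Pdyn and 3 for Nts. Sst reached 159 CPM there (145 to 173) and 1.63 to 3.90 CPM in the 6 other neuronal clusters. Without the barcode at place 608, Sst still had 25.5 CPM in it. Tac1 had 34.6 CPM (28.6 to 41.6) there and 23.0 CPM without its highest barcode. Gnrh1 had 454 CPM there and, without its 3 barcodes, 2.75 to 5.01 CPM in the 7 neuronal clusters. The rest again lay in few barcodes. Of the 84 Sst UMIs left without place 608, 70 were in 5 barcodes, and 15 of the 176 barcodes had any Sst UMI. Of the 76 Tac1 UMIs left without its highest barcode, 50 were in 4 barcodes.

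By CPM the Snhg11-led cluster also ranked highest for Nts, Cck, Pdyn (4.52 CPM, on 15 UMIs) and Npy, with 210 CPM of Npy (194 to 226), of which 545 of 696 UMIs were in the barcode at place 608. Most UMIs of the other members lay in other clusters. The deep-layer-like cluster held 55.0% of the Npy UMIs, at 197 CPM (189 to 206), an interval that overlaps that of the Snhg11-led cluster. Without the high barcodes Npy had 63.8 CPM in the deep-layer-like and 26.8 CPM in the Snhg11-led cluster. The deep-layer-like cluster held 53 of the 66 kept high Npy barcodes, with 9 in the subplate-like and 4 in the Snhg11-led cluster. It also held 29.3% of the Nts UMIs, at 29.1 CPM, and 5 of the 8 kept high Nts barcodes. Without the high barcodes Nts had 7.85 CPM there and 8.30 CPM in the Snhg11-led cluster. The Fezf2-led cluster, which held no high Nts barcode, was then highest, with 200 UMIs and an interval of 13.5 to 17.9 CPM. Of these 200 UMIs, 55 and 21 lay in barcodes with 9.17 and 9.11 Nts UMIs per 10000, just below the limit of 10. The Cajal-Retzius-like cluster held 75.9% of the Penk UMIs, at 47.3 CPM (43.1 to 51.8), and each of the other 6 neuronal clusters had 1.63 to 11.1 CPM. The Neurod1-led cluster held 60.6% of the Cartpt UMIs, 20 UMIs in 5 barcodes. Cck ranged from 48.1 CPM in the upper-layer-like to 166 CPM in the Snhg11-led cluster, with 116 CPM in both the deep-layer-like and the subplate-like clusters, which did not differ beyond their intervals (110 to 123 and 107 to 125). 9 of its 19 high barcodes lay in the Snhg11-led cluster. With those 19 left out, Cck had 67.2 CPM (58.4 to 76.9) in that cluster. The deep-layer-like cluster was then highest, with 110 CPM (104 to 117). A Cck UMI was found in 33.5% of the Snhg11-led barcodes, the lowest share among the neuronal clusters.

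**Figure D5:**
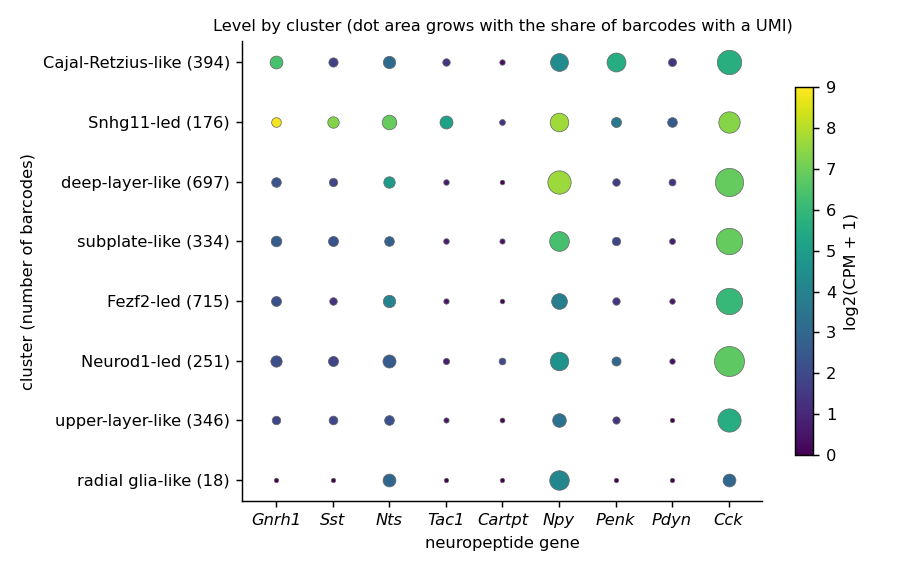
Level of 9 neuropeptide genes (columns) in 8 K-means clusters (rows, with the number of barcodes), as colour for log2(CPM + 1) and dot area for the share of barcodes with a UMI. The Snhg11-led cluster has the highest level of 7 genes (Gnrh1, Sst, Npy, Cck, Nts, Tac1 and Pdyn), the Cajal-Retzius-like cluster the highest Penk level (47.3 CPM), and small bright dots mark genes whose UMIs lie in few barcodes.

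The rest of the peptide pathway was followed through 4 lists. Of 35 other neuropeptide precursors, 13 had at least 20 UMIs in the 2 groups, of which 2 were at least 2-fold higher in Reln-high neurons and 4 lower, with a median log2 ratio of 0.07. The shares over all genes tested, which hold for each list here, were 9.89% higher and 7.28% lower, with a median of 0.12. Pnoc, the nociceptin precursor, had 27.8 CPM (24.9 to 30.9) in Reln-high against 2.44 CPM (1.99 to 2.96) in other neurons, a log2 ratio of 3.51 (3.19 to 3.84). Ghrh was higher on 12 and 14 UMIs, with a log2 ratio of 1.58 (0.33 to 2.80). The lower precursors were Nppc, the C-type natriuretic peptide (12.1 against 30.5 CPM), Grp, the gastrin-releasing peptide (2.39 against 6.80 CPM), Trh (0.659 against 2.44 CPM) and Tac2 (0 against 57 UMIs). Against a floor of 3 counts over the Reln-high group, Tac2 was at least 5.46-fold higher in other neurons, and the list's median was the same with Tac2 at that bound. 23 of the 59 Tac2 UMIs lay in a single barcode, at place 1678. Of 14 such precursors with at least 20 UMIs in the matrix, 3 (Calca, Gal and Tac2) were concentrated in their 3 highest barcodes by the limit used above. This was 21.4%, beside 2.08% of all genes with at least 20 UMIs. Calca had only 21 UMIs, with at most 3 in a barcode.

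The machinery that packs and cuts the precursors ranged from widely to rarely detected. Of 5 granins 1 was at least 2-fold higher in Reln-high neurons and none lower (median log2 ratio 0.19), beside 9.89% and 7.28% of all genes. This was Scg2, secretogranin II, with 50.1 CPM (46.2 to 54.3) against 19.9 (18.6 to 21.3). Of 6 processing enzymes 2 were higher and none lower (median 0.47), beside the same shares. Qpct, which forms the N-terminal pyroglutamate of peptides such as GnRH, had 51.8 CPM (47.8 to 56.0) against 4.86 (4.22 to 5.57), a log2 ratio of 3.41. Pcsk1, a prohormone convertase, had 3.46 CPM against 1.33, a log2 ratio of 1.38 (0.77 to 1.99). Cpe, the carboxypeptidase that trims the basic residues, was found in 2878 of 3000 barcodes, the convertase inhibitor gene Pcsk1n in 2976 and Qpct in 479. Pcsk2, another convertase, was found in 40.6% of barcodes, Pam, which amidates peptides, in 23.8%, Scg2 in 20.1% and Pcsk1 in 3.17%. None of the 5 granins and 6 enzymes was concentrated.

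Of 22 receptor genes for the members' peptides, 8 had at least 20 UMIs in the 2 groups. None was at least 2-fold higher in Reln-high neurons and 4 were lower, with a median log2 ratio of -0.97, beside 9.89% higher, 7.28% lower and a median of 0.12 over all genes. Sstr1, a somatostatin receptor, had 0.412 CPM (0.134 to 0.962) against 2.23 (1.80 to 2.73). Npy1r had 0.659 CPM (0.285 to 1.30) against 1.94 (1.55 to 2.41). Ntsr1, a neurotensin receptor and a layer 6 gene, had 6.92 CPM (5.52 to 8.57) against 14.3, a log2 ratio of -1.05 (-1.40 to -0.72). Tacr3 had 0.412 CPM against 0.853 CPM, from 5 and 36 UMIs, and the interval of its log2 ratio (-2.76 to 0.30) included 0. Sstr2 had 17.6 CPM (15.4 to 20.2) against 32.9 (31.2 to 34.7), within 2-fold. The receptor genes Gnrhr, Oprd1, Oprm1 and Oprk1 had 1, 1, 12 and 18 UMIs in the matrix, too few for a comparison. Of 9 receptor genes with at least 20 UMIs in the matrix, 3 were concentrated by the limit used above, beside 2.08% of all genes. These were Ntsr2, Tacr1 and Tacr3, on 21, 21 and 43 UMIs.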

How the data were processed

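Ebf2-EGFP+ cells of E15.5 mouse cerebral cortex were profiled in 1 droplet library. The authors deposited raw counts, that is, UMIs per gene and barcode; per the labels these came from Cell Ranger 2.0.0 with the build mm10, and Seurat 2.0 was used downstream. No cell annotation was used here, and cluster names were rebuilt, so they may differ from those of the study. The 10 genes, the wider lists and the markers were chosen with earlier results of these data known. The text names these genes, list and marker genes, the 10 genes with the highest ratio in a gene's high barcodes (ranked genes, pseudocount 10 CPM, at least 10 UMIs, in at least 2 of 3 barcodes), and up to 3 genes with a Pearson's r of log levels of at least 0.3. Other genes of single barcodes were named after their values were seen.

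Clustering ran in scikit-learn 1.9.0, doublet scores in scanpy 1.11.5, and intervals in scipy 1.17.1 (Python 3.11.15). Barcodes needed 1000 genes and at most 10% mitochondrial UMIs, which all 3000 met. The 2.3% with the highest Scrublet scores (69 barcodes) were removed from comparisons of groups and clusters; the automatic threshold called 4. Concentration, ranked genes and r used all 3000. Barcodes with at least 5 UMIs per 10000 of radial glia, microglial, endothelial or meningeal markers, or 100 of haemoglobin, were set aside from other neurons. A barcode was high for a gene at 10 UMIs per 10000 or more. K-means (8 clusters, 50 starts) used 20 principal components of 1972 variable genes. A cluster was named from at least 3 markers with 10 UMIs and a 2-fold higher level.

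Intervals were exact Poisson (CPM), conditional binomial (ratios) and Clopper-Pearson (shares), at 95%. With 1 library there was no test and no p-value. A ratio was given for genes with at least 20 UMIs. The ratio and concentration steps were tested on simulated data. For the ratios the simulated group totals had counting error only, so they do not show how the intervals behave for genes concentrated in few barcodes. Alternatives were thinning to 10000 UMIs, UMIs per 10000, other Reln limits, no doublet removal, no barcodes set aside, no barcodes above 25000 UMIs, no high barcodes, the top 10 barcodes, 12 clusters, a fold of 1.5 and a minimum of 100 UMIs. The comparison without the Snhg11-led cluster was added after seeing the data. Some marker and ranked genes are not reported here by name.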

Additional observations from a re-analysis of the deposited data

How the results depend on the processing

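No paired analysis was possible because all 8 samples shared 1 matrix and no test was run. The count of 5 concentrated genes became 8 (Npy, Penk and Pdyn added) with the top 10 barcodes in place of 3. It became 7 (Npy and Penk added) without barcodes above 25000 UMIs. The share over all genes was not computed for these settings. The count of 1 gene at least 2-fold higher in Reln-high neurons became 4 (Gnrh1, Tac1, Penk and Pdyn) without the Snhg11-led cluster. Without it the log2 ratio was 4.19 for Gnrh1, with 758 of its 957 UMIs in 1 barcode. For Tac1 the ratio reversed to 1.09 (-0.03 to 2.16, on 34 UMIs). The count of 4 lower genes became 0 without each gene's high barcodes, and ranged from 3 to 6 otherwise. The count of 13 other peptide pathway genes past the fold became 7 with at least 100 UMIs. Of 81 log2 ratios under the alternatives, 60 stayed within the 95% interval of the reported value, 10 moved above it, 10 below it, and 1 (Tac1) reversed; 4 of the 81, Tac1 among them, had the opposite sign. With 12 clusters the highest level of 7 genes lay in a Pbx3-led cluster (122 barcodes). Penk had 55.9 CPM (46.3 to 67.1) in a Cdkn1a-led cluster with 19.1% of its UMIs. In an Ndnf-led cluster with 57.2% of its UMIs Penk had 48.1 CPM (43.2 to 53.4), and the 2 intervals overlap. A single library, pooled embryos and counts under 100 for Pdyn and Cartpt limit these values.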
